A study of Homo sapiens with 12 samples.

Results

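The ERBB receptors and their ligands were followed in RNA sequencing libraries of CAOV3, an established line of human epithelial cells labelled as high-grade serous ovarian cancer. The members were chosen by name, as a receptor family and its ligands, with earlier results of these data known. They are the 4 receptors EGFR, ERBB2, ERBB3 and ERBB4 and the 6 ligands AREG, EREG, HBEGF, TGFA, BTC and NRG1, which makes 10 of the 19677 genes counted. Of these, 7 had enough counts to be tested, among 12470 genes tested in all, and ERBB4, BTC and NRG1 did not. The 12 libraries fell into 4 groups of 3, all of wild-type cells grown in medium with serum. Control cells received the solvent DMSO. The next group received ovarian cancer ascites at 10% of the medium with DMSO for 16 hours, another received bezafibrate at 200 uM for 16 hours, and the last received both the drug and the fluid for 16 hours. Ovarian cancers often fill the abdominal cavity with ascites, a protein-rich fluid that holds growth factors, and bezafibrate is a fibrate, a lipid-lowering drug that activates the PPAR nuclear receptors. DMSO is named in the labels of the control and ascites groups and in no label of a drug group, and the control labels list no time. By these labels a solvent difference cannot be told apart from the drug. A time difference cannot be told apart from any treatment set against control. The study asked how the fluid and the drug, alone and together, change transcription in these cells.

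ERBB receptors are membrane tyrosine kinases that act in pairs. AREG, EREG, TGFA, HBEGF and BTC are made as membrane-bound precursors, are cut free by metalloproteinases and bind EGFR, and HBEGF, BTC and EREG also bind ERBB4. NRG1 binds ERBB3 and ERBB4, while ERBB2 has no known ligand of its own and serves as the preferred partner of the others. Active receptors signal through the RAS and ERK cascade and through PI3-kinase and AKT. The pathway is a known driver of growth in epithelial cancers, and part of its response is the transcription of its own ligands and inhibitors.

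Total counts ranged from 11831093 to 18762759 per library, and replicates varied by 3.06% (common biological coefficient of variation). Principal component 1 (37.0% of the variance) split the libraries by drug. Replicate 3 of the combination stood apart on component 2 (9.88%), at -22.4 where the other libraries lay between -4.37 and 9.84. For members called against ascites alone, the difference is therefore also given without it. Values of genes outside the 10 members are given with it only. All 5 PPAR target genes read as a check of the drug rose, among them PDK4 by 4.07 on the log2 scale in bezafibrate against control (edgeR quasi-likelihood test, adjusted p = 6.14e-34). In that contrast 10.1% of all genes tested rose at an adjusted p under 0.05. The 5 genes were chosen with earlier results of these data known. Epithelial keratins were abundant, with KRT8 at no less than 2867 CPM (counts per 1e6 counts on TMM-scaled library sizes), whereas the serous markers PAX8, WT1, MUC16 and MSLN did not exceed 1.27 CPM in any library. Of 21 markers of blood, vessel, fibroblast and mesothelial cells, 7 were at 0 in every library, among them PTPRC, CD3E and PPBP. Their summed level was 196.7 to 202.3 CPM in control, 190.3 to 197.9 with ascites, 172.1 to 184.2 with bezafibrate and 168.4 to 183.5 with both. Most of that sum was LUM, and 3 of the 8 markers tested were called in each drug contrast. Their part in the results below was not tested. A gene was called at an adjusted p under 0.05 over all genes tested. Nothing in the labels says whether replicates were separate cultures, so the p-values measure the spread between these libraries.

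In control cells, which received DMSO, the ligand transcripts TGFA and EREG stood beside EGFR as the most abundant of the family. Per kilobase of exon (GENCODE v29 exon union), TGFA had the highest control level, 19.3 CPM per kb. EGFR followed at 12.98 and EREG at 12.4, and their control libraries overlapped (12.7 to 13.1 and 12.1 to 12.8). AREG (8.04) and ERBB3 (7.55) also overlapped, and ERBB2 lay lower at 3.40. HBEGF was at 1.79 and BTC at 0.0865. With the length of the longest principal transcript in place of the exon union, ERBB3 (11.5) stood above AREG (10.7), and the other tested members kept their order. With bezafibrate the order of the upper 3 changed on the exon-union scale: TGFA was at 27.6, EREG at 17.3, AREG at 11.9 and EGFR at 10.6 CPM per kb.

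**Figure D1:**
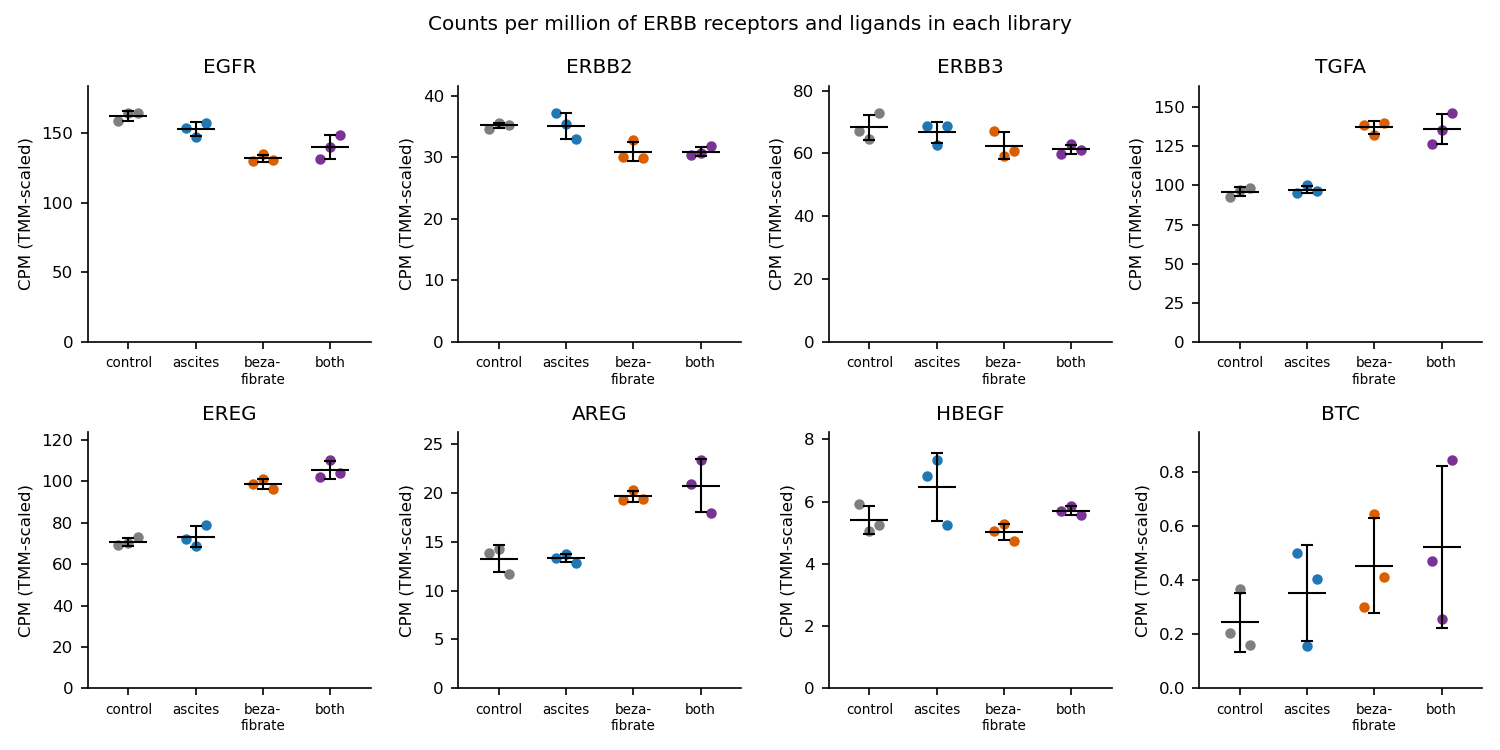
Level of 8 members in each library, in TMM-scaled CPM (vertical axes, each starting at 0), by group (horizontal axes; both means bezafibrate plus ascites). Points are libraries, the wide dash is the mean and the bars are 1 SD over 3 libraries. TGFA, EREG and AREG lie higher in all 6 libraries with the drug than in any of the 6 without it, EGFR lies lower in 5 of them than in any library without it, and the BTC values rest on 2 to 12 counts a library.

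With bezafibrate, 3 ligand transcripts were called higher and 2 receptor transcripts lower, with and without the fluid. The ligand calls held in all 13 alternative analyses of each contrast. The EGFR call held in 13 without and 9 with the fluid, and the ERBB2 call in 7 of each. TGFA, EREG and AREG were each 39.5% to 56.1% higher with the drug, and EGFR and ERBB2 fell by 0.13 to 0.30 on the log2 scale. In bezafibrate against control, 5 of the 7 members tested were called, 3 higher and 2 lower, where 17.6% of all genes tested were called (10.1% higher and 7.55% lower). In the combination against ascites alone, 5 of 7 were again called, 3 higher and 2 lower, against a background of 17.8% (10.5% higher and 7.29% lower). These contrasts share no library, and DESeq2 called 4 of the 7 in each. ERBB3 differed by -0.13 in both and was not called. In the combination against control, 6 of 7 were called, 3 higher and 3 lower, against 18.2% of all genes (10.3% higher and 7.96% lower), and this contrast shares libraries with both of the others. The median log2 fold change of the tested members was -0.11 without and -0.13 with ascites, beside a median of -0.0037 over all genes in each. These medians are the values of single genes that were not called, HBEGF without and ERBB3 with the fluid. Since members moved in both directions, they show no shift of the family as a whole. These are bulk libraries, in which fewer cells making a transcript and less transcript per cell cannot be told apart.

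EGFR, the receptor of most of these ligands (ENSG00000146648.20, chromosome 7, 55019017 to 55211628 on GRCh38.p14), was at 159, 164 and 164 CPM in the control libraries. With bezafibrate it was at 131, 135 and 131 CPM. The drug libraries all lay below the control libraries, and EGFR fell by 0.30 on the log2 scale (SE 0.040, adjusted p = 2.94e-07). With ascites alone EGFR was at 154, 148 and 158 CPM, and with both treatments at 131.5, 140.4 and 149 CPM. Here combination replicate 3, the library that stands apart, reached into the range of the ascites libraries, and the other 2 lay below it. EGFR fell by 0.13 in this contrast (SE 0.041, adjusted p = 0.0196), and by 0.18 (adjusted p = 0.000396) without that library. That call was lost when ascites replicate 1 or 3 or combination replicate 1 was left out, or when only the 2 groups were fitted (adjusted p up to 0.184).

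ERBB2, the receptor without a ligand (ENSG00000141736.14, chromosome 17, 39688094 to 39728658), was at 34.6, 35.6 and 35.2 CPM in control and at 30.1, 32.7 and 29.9 CPM with the drug. With ascites it was at 37.1, 35.4 and 32.9 CPM, and with both at 30.3, 30.7 and 31.7 CPM. In neither pair of groups did the libraries overlap. ERBB2 fell by 0.18 without the fluid (SE 0.062, adjusted p = 0.0347) and by 0.19 with it (SE 0.064, adjusted p = 0.0377). Without combination replicate 3 the latter difference was -0.20 (adjusted p = 0.0319). Both calls sit near the threshold: each held in 7 of 13 alternative analyses and was lost with DESeq2, with the adjusted p reaching 0.131 and 0.214. Among the 6 alternatives that left out 1 library, the call held in 1 without the fluid and in 2 with it. The call with the fluid was also lost when only the 2 groups were fitted. Its exons share 5.53% of their bases with MIEN1 and 1.88% with PGAP3 on the opposite strand, neither of which was called in these contrasts, and the counting strand is not given in the sources used here.

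ERBB3, a receptor with an impaired kinase that signals through its partner (ENSG00000065361.17, chromosome 12, 56080108 to 56103505), was at 67.3, 64.7 and 72.7 CPM in control and at 67.3, 59.2 and 60.7 CPM with the drug. The groups overlapped, and the difference of -0.13 (SE 0.053) was not called (adjusted p = 0.1001). With the fluid it was -0.13 (SE 0.055, adjusted p = 0.116), with ascites libraries at 68.7, 62.7 and 68.7 CPM and combination libraries at 59.9, 62.9 and 61.0 CPM. Against control, the combination was lower by a called -0.16 (adjusted p = 0.0424). This call held in 7 of 13 alternatives, and in 2 of the 6 that left out 1 library. ERBB4, the remaining receptor (chromosome 2, 211375717 to 212538802), had 6 counts in all, spread over 4 libraries. In the fit with no filter on low counts its differences were -0.20 (SE 1.89) without and -1.29 (SE 1.67) with the fluid, errors too wide to show a direction.

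**Figure D2:**
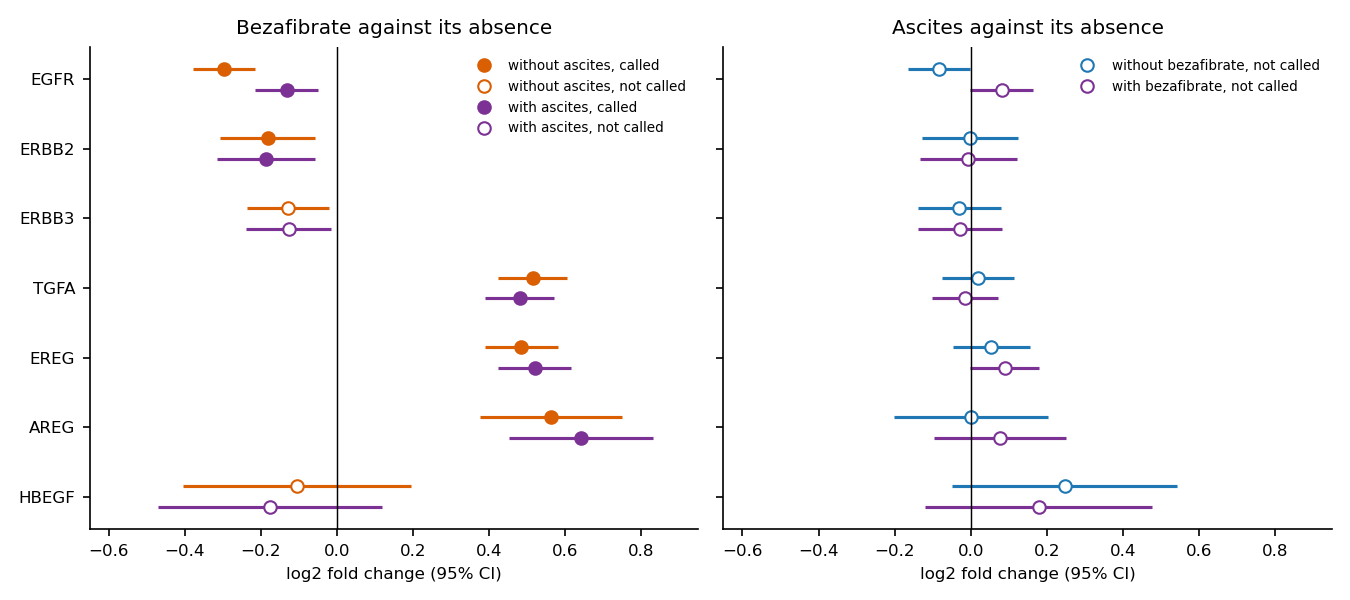
Log2 fold change (horizontal axes) of the 7 tested members for the drug (left) and the fluid (right), with 95% confidence intervals as lines. Filled points passed an adjusted p of 0.05 over all genes and open points did not. TGFA, EREG and AREG lie between 0.48 and 0.64 for the drug with or without the fluid, and no member is filled for the fluid.

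The ligands that rose were TGFA, EREG and AREG. TGFA encodes transforming growth factor alpha, a high-affinity EGFR ligand common in carcinomas (ENSG00000163235.16, chromosome 2, 70447284 to 70553826). EREG and AREG encode epiregulin and amphiregulin, lower-affinity EGFR ligands that lie beside each other on chromosome 4 (EREG, ENSG00000124882.4, 74365145 to 74388749; AREG, ENSG00000109321.11, 74445136 to 74455005). Their promoters are shown because the 3 genes moved together with the drug. Each line gives 300 bases from RefSeq (GRCh38.p14), 250 before and 50 from the start of the gene on, read 5′ to 3′ on the gene's strand, which is plus for AREG and EREG and minus for TGFA. Capitals mark matches, on either strand, to TGACGTCA (the cyclic AMP response element), TATAAA (the TATA box), GGGCGG (the GC box) and AGGTCA (the hexamer that nuclear receptors such as PPAR recognise in pairs).
AREG, chr4:74444886-74445185: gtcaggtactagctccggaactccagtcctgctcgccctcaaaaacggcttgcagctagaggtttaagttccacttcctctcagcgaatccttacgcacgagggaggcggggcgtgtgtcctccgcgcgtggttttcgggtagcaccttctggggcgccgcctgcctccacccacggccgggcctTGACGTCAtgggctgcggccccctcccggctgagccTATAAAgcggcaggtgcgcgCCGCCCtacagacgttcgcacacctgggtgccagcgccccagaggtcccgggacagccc
EREG, chr4:74364895-74365194: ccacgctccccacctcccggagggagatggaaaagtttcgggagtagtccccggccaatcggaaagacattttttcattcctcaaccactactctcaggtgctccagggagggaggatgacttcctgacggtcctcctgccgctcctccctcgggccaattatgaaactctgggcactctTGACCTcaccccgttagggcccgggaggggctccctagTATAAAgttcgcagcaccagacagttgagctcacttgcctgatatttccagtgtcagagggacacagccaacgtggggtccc
TGFA, chr2:70553777-70554076: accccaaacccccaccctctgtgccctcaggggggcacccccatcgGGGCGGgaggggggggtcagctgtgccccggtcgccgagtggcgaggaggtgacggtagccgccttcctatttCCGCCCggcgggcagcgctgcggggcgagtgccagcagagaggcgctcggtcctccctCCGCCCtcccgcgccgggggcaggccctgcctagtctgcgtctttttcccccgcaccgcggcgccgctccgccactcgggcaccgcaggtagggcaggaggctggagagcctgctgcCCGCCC

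No motif was common to all 3 windows. RefSeq lists another start for TGFA, with a window at chr2:70553397-70553696 of 63% GC that held none of the motifs. AREG held the cyclic AMP response element 65 bases before its start, which 1.85% of 35116 RefSeq promoters of this length hold, a TATA box 29 bases before it and a GC box on the reverse strand 9 bases before it. EREG held a TATA box 32 bases before its start, as did 11.5% of all promoters in some position, and a single AGGTCA on the reverse strand 70 bases before it, found in 13.8%. The TGFA window shown held neither of these and had 4 GC boxes, a motif found in 44.95% of promoters, in a window of 75.3% GC where the median promoter has 58.7%. The window of AREG had 66.3% and that of EREG 57.7% GC. A direct repeat of AGGTCA with 1 base between the copies, the pairing PPAR is known to bind, was in 0.0228% of promoters and in none of the 8 members that matched an entry. Only exact copies within these windows were searched, and nearly all promoters lack them, so their absence here decides nothing about PPAR. TGACTCA and TGAGTCA, the AP-1 site, were in 4.95% of promoters and in none of the 3 windows shown. A match is a run of letters, and no factor binding was measured.

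TGFA was at 92.8, 97.0 and 98.1 CPM in control and at 138.7, 132.5 and 140.2 CPM with bezafibrate. With ascites it was at 95.5, 100.1 and 96.4 CPM, and with both at 127, 136 and 146 CPM. All 6 drug libraries lay above all 6 others. TGFA rose by 0.51 on the log2 scale without the fluid (SE 0.044, adjusted p = 7.27e-12) and by 0.48 with it (SE 0.045, adjusted p = 6.14e-11). Without combination replicate 3, which had its highest value, the latter was 0.43.

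EREG was at 69.1, 70.2 and 72.9 CPM in control and at 98.7, 101.4 and 96.5 CPM with the drug. With ascites it was at 72.1, 68.9 and 78.8 CPM, and with both at 102, 110.4 and 104 CPM. Again the drug libraries and the others did not overlap. EREG rose by 0.48 (SE 0.047, adjusted p = 1.88e-10) without the fluid and by 0.52 (SE 0.048, adjusted p = 3.65e-11) with it. Without combination replicate 3 the latter was 0.53.

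AREG, the least abundant of these ligands, was at 13.8, 14.3 and 11.7 CPM in control and at 19.3, 20.3 and 19.3 CPM with the drug. With ascites it was at 13.3, 13.7 and 12.9 CPM, and with both at 20.9, 23.4 and 17.9 CPM. The lowest drug library, combination replicate 3, was above every library without the drug. AREG rose by 0.56 (SE 0.092, adjusted p = 1.00e-05) and, with the fluid, by 0.64 (SE 0.094, adjusted p = 1.35e-06), or 0.73 without that library. All these ligands stayed called in each of the 13 alternative analyses of each drug contrast. Their log2 fold changes exceeded those of 95.5% to 97.3% of all genes tested.

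No change was called for the remaining ligands of the 10 members. HBEGF, the heparin-binding ligand of EGFR and ERBB4 (ENSG00000113070.8, chromosome 5, 140332843 to 140346603), was at 5.93, 5.07 and 5.24 CPM in control and at 5.06, 5.27 and 4.74 CPM with the drug, which overlap. Its difference was -0.11 without the fluid (95% interval -0.41 to 0.19, adjusted p = 0.716) and -0.18 with it (-0.47 to 0.12, adjusted p = 0.478). BTC, betacellulin (chromosome 4, 74744759 to 74794523), had 2 to 12 counts a library, 25 over the 6 libraries without the drug and 44 over the 6 with it. In the fit with no filter on low counts its log2 fold change in bezafibrate against control was 0.89 with an SE of 0.652 (adjusted p = 0.474), and in the combination against ascites it was 0.52 with an SE of 0.610 (adjusted p = 0.678). These errors leave the direction of BTC undecided. NRG1, neuregulin (chromosome 8, 31639245 to 32774046), had no count in any library, which allows a level of up to 0.0173 CPM over the 12 libraries (3 counts, counting error only).

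Among the ligands of the family outside these 10, NRG4, an ERBB4 ligand, was the only 1 of 5 tested. It was at 7.77, 7.20 and 7.14 CPM in control, 6.55, 6.64 and 7.47 CPM with ascites, 10.1, 7.91 and 8.73 CPM with the drug and 9.62, 9.77 and 9.46 CPM with both. The drug libraries lay above the others. The difference was 0.27 without the fluid (adjusted p = 0.132) and a called 0.48 with it (SE 0.123, adjusted p = 0.00402). The value is uncertain, because 38.1% of the bases of its exons lie opposite exons of FBXO22, a gene that was not called (-0.03 and 0.05). EGF had 2 counts in all, EPGN 20, NRG2 25 and NRG3 none.

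Ratios of counts within a library, which no scaling can move, show the shift between ligands and receptor. These ratios are not corrected for length, so only their change is read. TGFA to EGFR was 0.585 to 0.677 in the 6 libraries without the drug and 0.964 to 1.07 in the 6 with it. EREG to EGFR was 0.427 to 0.500 without and 0.697 to 0.786 with it, and AREG to EGFR 0.0709 to 0.0930 and 0.120 to 0.166. None of these ranges overlapped. For other pairs the ranges overlapped: EREG to AREG was 4.93 to 6.25 without and 4.73 to 5.81 with the drug, ERBB2 to EGFR 0.209 to 0.241 and 0.213 to 0.242, and ERBB3 to ERBB2 1.77 to 2.09 and 1.81 to 2.24. These ratios restate the levels above and were not tested.

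**Figure D3:**
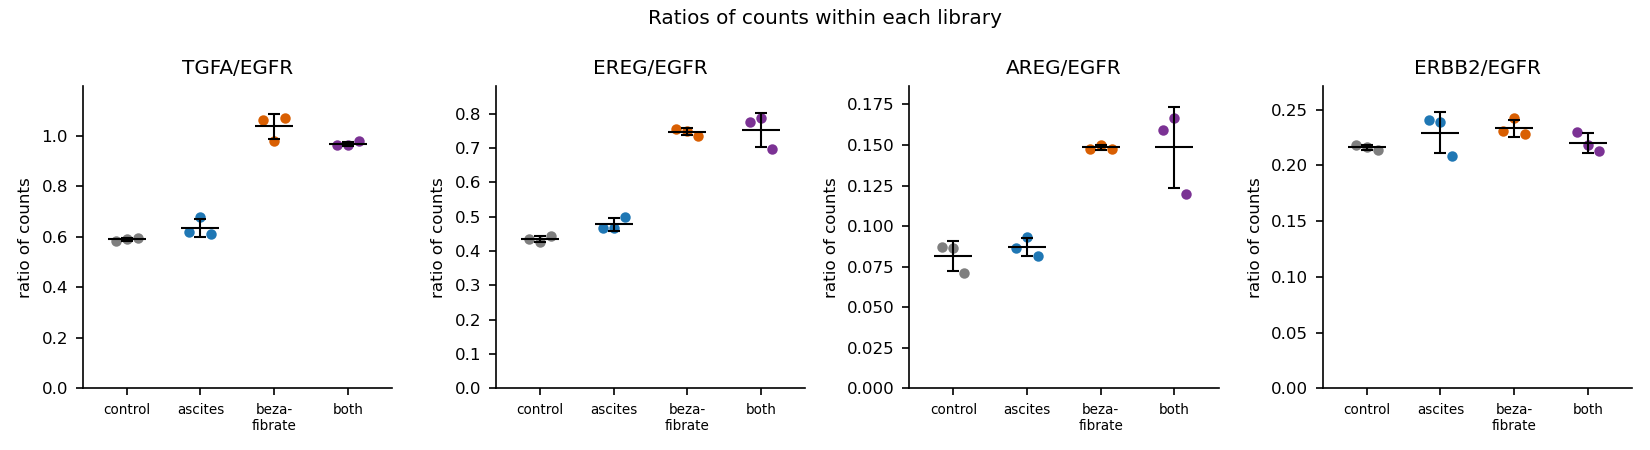
Ratio of the counts of 2 members within each library (vertical axes, each starting at 0) by group (horizontal axes; both means bezafibrate plus ascites). Points are libraries, the wide dash is the mean and the bars are 1 SD over 3 libraries. The ligand to EGFR ratios of libraries with and without the drug do not overlap, while ERBB2 to EGFR stays between 0.209 and 0.242.

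Ascites changed no member by this test. In ascites against control, 0 of 7 members were called, where 0.0882% of all genes were (11 of 12470), and in the combination against bezafibrate 0 of 7 where 0.128% were (16 of 12470). At an unadjusted p under 0.05 there was 1 member of 7 in the first (749 of all genes) and none in the second (597 of all genes), and DESeq2 called 0 members in both. The largest difference was that of HBEGF, at 6.83, 7.34 and 5.25 CPM with ascites and 5.69, 5.86 and 5.57 CPM with both treatments. It was 0.25 higher with ascites than control (SE 0.146, 95% interval -0.05 to 0.54, adjusted p = 0.896) and 0.18 higher with the drug present (-0.12 to 0.48, adjusted p = 1.00). EGFR was the member with an unadjusted p under 0.05 in edgeR, at -0.08 against control (unadjusted p = 0.0439, adjusted p = 0.826), and its libraries in these groups did not overlap. With the drug present its difference had the other sign, 0.08 (adjusted p = 1.00). For TGFA the intervals were -0.07 to 0.11 without and -0.10 to 0.07 with the drug, so a change as large as that with bezafibrate lay outside them.

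Whether the drug acted differently in the fluid was tested as the interaction. It was called for 0 of 7 members and 0% of all genes (0 of 12470), and 445 genes had an unadjusted p under 0.05. DESeq2 called 0 members and 1 gene in all. EGFR was the member furthest from 0, with a drug effect 0.16 less negative in ascites (SE 0.057, 95% interval 0.05 to 0.28, unadjusted p = 0.00661, adjusted p = 0.999), or 0.12 without combination replicate 3. The interval was -0.10 to 0.17 for EREG, -0.16 to 0.09 for TGFA and -0.19 to 0.35 for AREG.

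**Figure D4:**
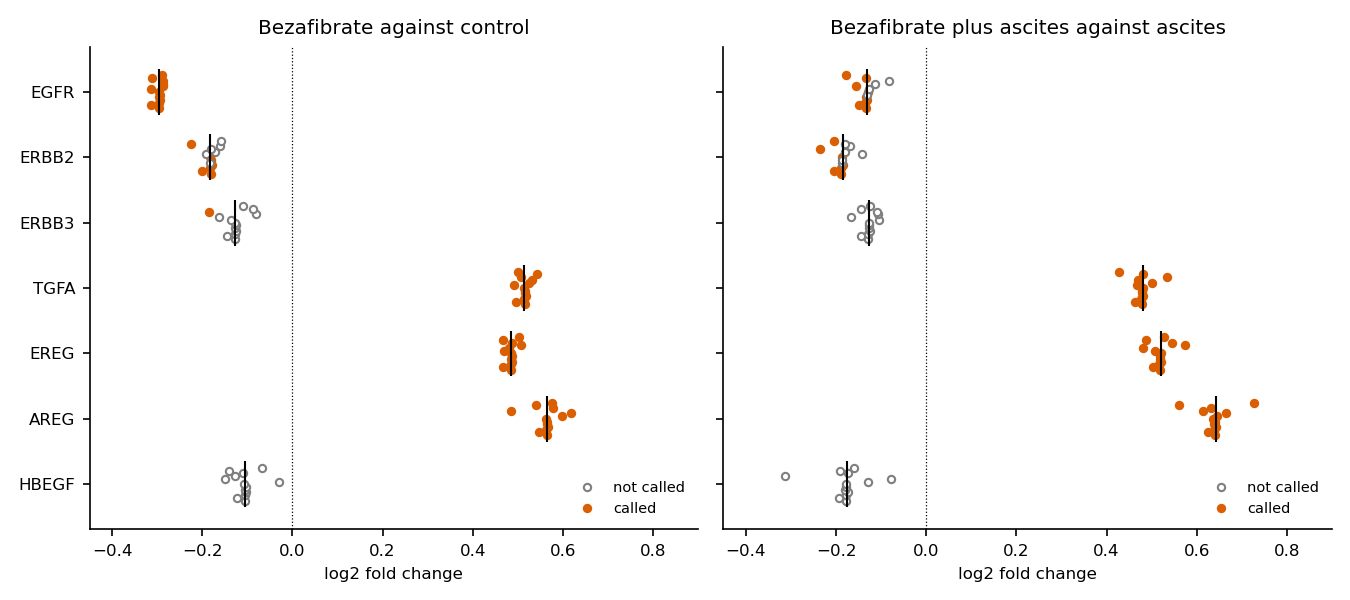
Log2 fold change (horizontal axes) of each tested member for the drug without ascites (left) and with it (right), with the black line at the reported value. Each point is 1 of 13 alternative analyses, filled where the adjusted p was under 0.05. TGFA, EREG and AREG are filled throughout, EGFR is filled in 13 and 9 of 13, ERBB2 in 7 and 7, and ERBB3 in 1 and 0.

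The genes that act around the receptors were read from lists of known function, and the calls below are counted beside the 17.6% and 17.8% of all genes called in bezafibrate against control and in the combination against ascites. Of 11 tested genes that shed ligands or regulate shedding, 3 rose and 1 fell with the drug, and 4 rose and 1 fell with the drug in ascites, with a median log2 fold change of 0.07 in each. TIMP3, an inhibitor of the sheddase ADAM17, rose by 1.24 (SE 0.0536, adjusted p = 2.77e-20) and 1.37, from 30.7 ± 0.997 to 72.5 ± 2.44 CPM (SD, n = 3) without the fluid. ADAM19, a metalloproteinase, rose by 0.79 and 1.00 and RHBDF2, which carries ADAM17 to the cell surface, by 0.46 and 0.24. In the latter contrast the RHBDF2 libraries overlapped, at 24.0 to 26.3 CPM with ascites and 24.7 to 31.7 CPM with both treatments. ADAM9 fell by 0.16 and 0.11, and the tetraspanin CD9 rose by 0.12 in ascites. DESeq2 called 4 genes of this list without and 3 with the fluid. ADAM17 itself was at 58.8 ± 0.845 CPM in control and 61.9 ± 0.990 CPM with the drug and was not called. The genes of this list that moved include both an inhibitor and helpers of shedding.

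Of 21 genes that inhibit the receptors or take them from the surface, 3 rose and 1 fell without the fluid and 4 rose and 0 fell with it, with medians of -0.02 and 0.02. That is close to the share of all genes called in these contrasts (17.6% and 17.8%). ERRFI1, an inhibitor that binds the EGFR kinase domain, rose by 0.18 (SE 0.0286, adjusted p = 6.18e-06) and 0.21, from 393 ± 11.4 to 445 ± 2.29 CPM (SD, n = 3). NEDD4, a ubiquitin ligase, rose by 0.21 in both, and PTPN12, a tyrosine phosphatase, by 0.15 and 0.17. The PTPN12 libraries with ascites and with both treatments overlapped. EPS15, an endocytic adaptor, rose by 0.20 in ascites, and LRIG3 fell by 0.27 without it. Of 26 adaptors and relay proteins, 2 rose and 1 fell, and in ascites 1 rose and 1 fell, with medians of 0.01 and -0.0048. In both contrasts this was a lower share than that of all genes. SHC1, the adaptor that couples receptors to RAS, rose by 0.19 and 0.17, PIK3CB rose by 0.16 and PIK3R3 fell by 0.34 without the fluid, and the kinase SRC fell by 0.17 with it.

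Genes that ERK signalling is known to induce moved in both directions. Of 22, 5 rose and 5 fell without the fluid and 6 rose and 4 fell with it, with medians of -0.02 and -0.03. JUN, a part of AP-1, rose by 0.82 (SE 0.0620, adjusted p = 2.54e-13) and 0.88, from 34.7 ± 2.45 to 61.6 ± 3.32 CPM (SD, n = 3). KLF10 rose by 0.52 and 0.62, the feedback inhibitor SPRED1 by 0.35 and 0.41, and LIF by 0.27 in ascites. The feedback inhibitors SPRY1 and SPRY2 fell by 0.41 and 0.31, and in ascites by 0.60 and 0.25. DUSP4, a phosphatase of ERK, fell by 0.29 and 0.33. EGR1, FOS, MYC and DUSP6, which also respond to ERK, were not called in either of these contrasts: EGR1 was at 10.5 ± 1.76 CPM in control and 9.56 ± 1.72 CPM with the drug, and DUSP6 at 157 ± 3.80 and 165 ± 3.47 CPM. In these 4 lists edgeR called 0 genes with ascites, with or without the drug, and of all listed genes FABP4, a PPAR target, was the exception, at 0.15 in the combination against bezafibrate (adjusted p = 0.0152). DESeq2 also called 0 genes of these 4 lists with ascites, and 1 of the PPAR targets in the combination against bezafibrate. At an unadjusted p under 0.05 in edgeR there were 2, 1, 2 and 2 genes in ascites against control, in the order of the lists above. In the combination against bezafibrate there were 0, 1, 1 and 2. The lists held 11, 21, 26 and 22 tested genes, and 749 and 597 of all 12470 genes passed in these contrasts.

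**Figure D5:**
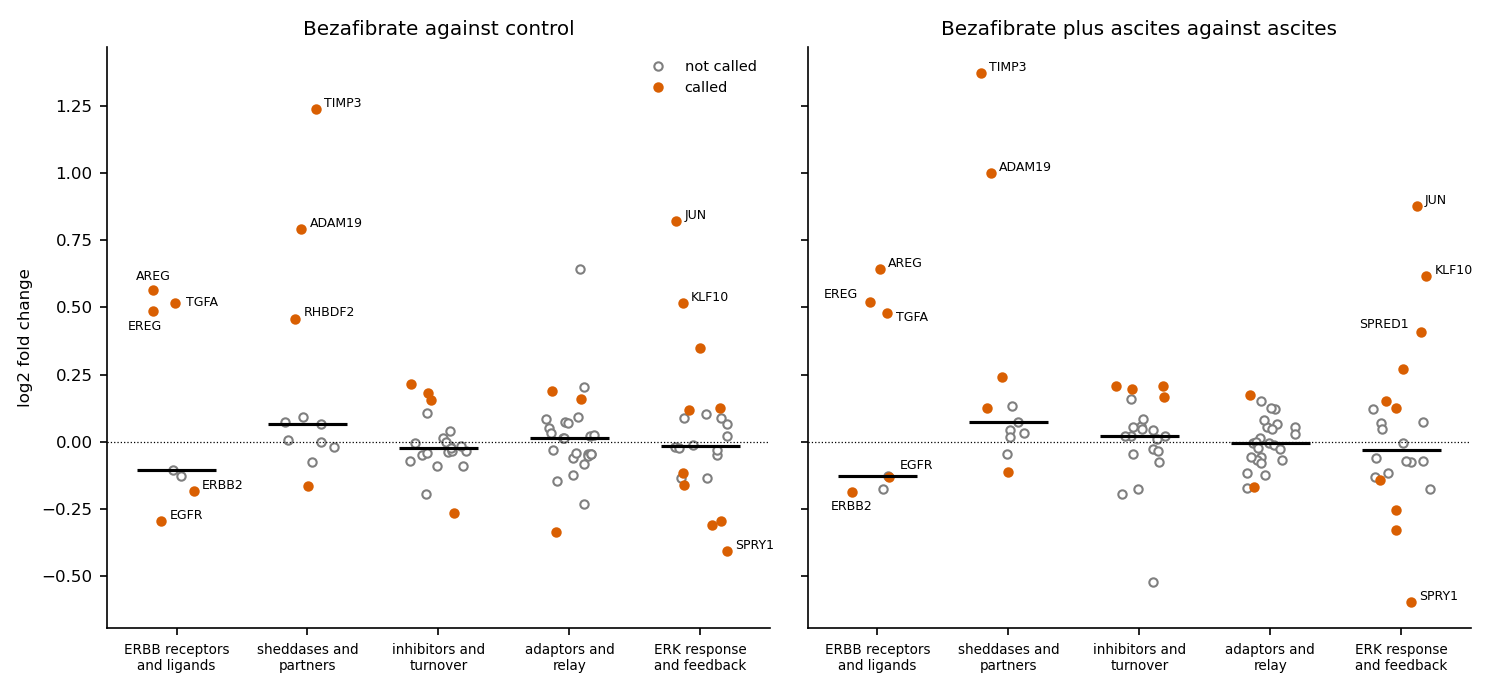
Log2 fold change (vertical axes) of each tested member and of each tested gene in the 4 lists around the receptors (horizontal axes), for the drug without ascites (left) and with it (right). Filled points were called, open points were not, and black lines are list medians; points are spread sideways at random. The 3 called ligands stand at 0.48 to 0.64, and the medians of the lists lie within 0.08 of 0.

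Across the 12 libraries the genes whose log2 level followed a member most closely were, for TGFA, FAM241A, HADHA and ACAA2 (Pearson r 0.99 for each), and HADHA and ACAA2 encode enzymes of mitochondrial fatty acid oxidation. For EREG they were PSMD2 (0.99), APOL6 (0.98) and IL7R (0.98), and for AREG PXDC1 (0.99), ADM2 (0.98) and SPIRE2 (0.98). EGFR was followed by AKAP12 (0.96), TFPI (0.96) and PTBP3 (0.95), and ERBB2 by ARHGDIB (0.93), COBLL1 (0.93) and PIAS2 (0.93). Among the members, r was 0.95 between EREG and TGFA, 0.92 between AREG and EREG, 0.89 between AREG and TGFA and 0.81 between EGFR and ERBB2, and -0.85 between EGFR and AREG. These values describe 12 libraries that fall into those with and without the drug, so any genes that moved with the drug correlate, and 5.60% of 10378 genes had an r over 0.9 with TGFA.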

How the data were processed

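The titles of the 12 libraries gave the groups and replicate numbers. For each library the authors deposited whole-number counts per gene, in a table with no header. Per the submitters' processing notes, which give no role or order, Trimmomatic 0.39, STAR 2.7.9a, RSEM 1.3.3, DESeq2 1.28.1 and build GRCh38 were used. The annotation and the counting strand are not given in the sources used here. No column of per-sample values was left out.

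Genes were kept with filterByExpr (minimum count 10, minimum total 15), which left 12470 of 19677 genes, holding at least 99.96% of the counts of each library. Counts were scaled by TMM and tested with edgeR 4.0.16 (glmQLFit, robust; glmQLFTest) in R 4.3.3, in 1 fit of the 4 groups (8 residual degrees of freedom). P-values were adjusted by Benjamini-Hochberg over all genes tested and called under 0.05. The SE is the log2 fold change, without its sign, over the square root of F. Log2 CPM values used a prior count of 2. The test was checked on simulated data. Replicate pairs differed by a chi-square of 1.44 to 4.45 per degree of freedom, so none was a copy of another. This does not show whether they were separate cultures. Alternatives were 2 other scalings, 2 other filters, DESeq2 1.42.0, a fit of the compared groups alone, a replicate block and leaving out each library.

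The members and the lists were chosen with earlier results of these data known. Members and other ligands are always named. From each further list, up to 6 called genes with the largest absolute log2 fold change and a mean of at least 1 CPM are named per drug contrast, with any gene called with ascites. ADAM17, EGR1, FOS, MYC and DUSP6 lie outside this rule and were picked after their values were seen. For likeness, the 3 genes with the highest r were taken for members called in both drug contrasts, among genes whose mean reached 5 CPM. Gene positions and promoters are from RefSeq (GRCh38.p14), exon lengths and overlaps from GENCODE v29. ERBB3 and NRG1 matched no promoter entry.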

Additional observations from a re-analysis of the deposited data

How the results depend on the processing

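For the 7 tested members and the 6 contrasts, 581 log2 fold changes were recomputed under the alternatives. Of these, 552 kept their side of the threshold, 28 lost a call, 1 gained a call and none reversed a called direction. Differences near 0 that were not called changed sign under some alternatives, as for AREG in ascites against control (-0.08 to 0.05) and ERBB2 there (-0.04 to 0.05). The calls lost were of EGFR, ERBB2 and ERBB3, and 21 of the 28 came from leaving out 1 library. In the combination against ascites, 3 members were called in place of 5 when only these 2 groups were fitted, and between 3 and 5 when 1 library was left out.

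Counts over all genes moved more for the fluid than for the drug. For ascites against control, 11 genes became 59 with no filter on low counts, 33 with only the 2 groups fitted, and 3 to 5 without 1 library. For the combination against bezafibrate, 16 became 52, 7 and 9 to 28 under the same changes, the 28 without combination replicate 3. For the interaction, 0 became 36 with no filter, 1 with DESeq2, 1 with the replicate block and 0 to 3 without 1 library. No member was among these calls, and the cause was not tested. Same-numbered libraries showed no shared deviation (18 correlations from -0.135 to 0.0613, none over 0.1). This cannot show whether libraries of the same number were handled together. With the replicate block, 5 members were called in each drug contrast as before, 2145 and 2154 genes in all, and no member changed its call. Upper-quartile scaling moved the median of all genes to -0.0216 in bezafibrate against control, and no member changed direction there. ERBB4, BTC and NRG1 had at most 12 counts in a library and did not pass the filter, and at this depth a small change in them would not be detectable.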

Other observations

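EREG and AREG lie in a stretch of chromosome 4 that also holds EPGN, BTC and a row of chemokine genes. The 14 protein-coding genes of GENCODE v29 within 500 kb of the ligand genes there were read, a window chosen after the values were seen. Of these, 4 were tested: EREG and AREG, which prompted the window and were called in both drug contrasts, and MTHFD2L and PARM1, which were called in neither, where 17.6% and 17.8% of all genes were called. MTHFD2L, which lies beside EPGN, was at a mean of 3.69 CPM and differed by 0.35 (SE 0.208, adjusted p = 0.296) without the fluid and by 0.16 (adjusted p = 0.669) with it. In the combination against control it differed by 0.43 (SE 0.214), also not called. With these errors a rise in MTHFD2L as large as that of EREG was not excluded. PARM1, on the other side of BTC, was at 4.89 CPM and differed by -0.31 (SE 0.154, adjusted p = 0.191) and 0.13 (adjusted p = 0.655). The 10 genes not tested had at most 69 counts over all libraries, which was BTC. CXCL2 had 48 counts and CXCL3 29, while CXCL5, PF4 and PPBP had none.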
